A study of Mus musculus with 4 samples.

Results

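The 6 genes described here encode channels and membrane proteins of the lens, and each was taken with all probe sets whose platform annotation names exactly 1 of Gja1, Gja3, Mip, Aqp1, Aqp5 and Lim2. They make up 6 of the 18193 genes on the array with a single symbol, and 13 of its 45037 non-control probe sets, of which 6 measure Gja1, 2 measure Gja3, 2 measure Mip and 1 each measures Aqp1, Aqp5 and Lim2. A probe set is a group of short oligonucleotides on the array that together give 1 intensity for a transcript. RNA came from whole lenses of newborn mice at postnatal day 0.5. The knockout group held 2 arrays of Hsf4 knockout lenses, titled HSF4 knockout1 and HSF4 knockout2, and the wild-type group held 2 arrays of lenses with intact Hsf4, titled Wild type1 and Wild type2. All 4 samples are labelled as males of the 129S3 background. The sources used here name neither the knockout allele nor the cells that lose Hsf4, nor any pooling of animals. No label says whether 2 arrays of a group stand for different animals, so a p-value reflects only how far the arrays differ, possibly for technical reasons.

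The lens has no blood supply of its own, and its transparency depends on currents of ions, water and small metabolites that run between cells. Gap junctions, built from connexins, join the cytoplasm of neighbouring cells: Gja1 encodes connexin 43 of the lens epithelium, and Gja3 encodes connexin 46 of the fibre cells. Aquaporins pass water: Mip encodes aquaporin 0, the most abundant membrane protein of fibres and also an adhesion protein, Aqp1 serves the epithelium, and Aqp5 is found in lens, cornea and secretory glands. Lim2 encodes MP20, a tetraspan protein of fibre membranes in the PMP22 and EMP family. Mutations of Gja3, Mip and Lim2 are known causes of cataract. Hsf4 encodes heat shock transcription factor 4, which binds DNA at heat shock elements, arrays of inverted GAA units, and knockout lenses were set against wild-type lenses to find RNAs that differ without it.

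Because the factor removed in the knockout binds DNA, the promoter windows of the 6 genes were searched for paired heat shock units, and the windows of Mip, Lim2 and Gja1 are shown as those of the main fibre water channel, the other bright fibre membrane gene and the epithelial connexin. The sequences are RefSeq's, build GRCm38.p6, from 250 bases before to 50 bases after the annotated start, written 5′ to 3′ along the gene. All 6 genes matched, with 7 windows in all since Gja3 has 2. The Mip window lies on the plus strand at chr10:128225560-128225859, the Lim2 window on the plus strand at chr7:43429849-43430148 and the Gja1 window on the plus strand at chr10:56377050-56377349. Capitals mark TGCTGA on either strand, the core of sites bound by Maf factors, which regulate fibre genes.
Mip: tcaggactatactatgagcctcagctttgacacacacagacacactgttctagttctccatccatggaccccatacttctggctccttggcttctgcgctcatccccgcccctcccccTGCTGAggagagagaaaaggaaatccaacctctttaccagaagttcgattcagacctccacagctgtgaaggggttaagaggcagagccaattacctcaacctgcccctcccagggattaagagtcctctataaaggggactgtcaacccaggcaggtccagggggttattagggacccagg
Lim2: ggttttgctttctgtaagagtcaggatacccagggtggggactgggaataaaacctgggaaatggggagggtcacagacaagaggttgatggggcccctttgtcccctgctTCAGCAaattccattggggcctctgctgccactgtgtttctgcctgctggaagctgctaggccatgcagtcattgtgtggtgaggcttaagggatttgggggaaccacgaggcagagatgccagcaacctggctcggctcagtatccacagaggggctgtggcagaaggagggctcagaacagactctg
Gja1: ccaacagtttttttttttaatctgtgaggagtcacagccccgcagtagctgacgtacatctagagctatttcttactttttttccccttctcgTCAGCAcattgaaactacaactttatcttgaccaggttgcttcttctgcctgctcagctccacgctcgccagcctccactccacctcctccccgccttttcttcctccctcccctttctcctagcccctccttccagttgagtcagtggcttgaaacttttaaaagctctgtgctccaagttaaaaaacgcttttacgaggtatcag

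The head-to-head pair GAANNTTC and the tail-to-tail pair TTCNNGAA, each of which reads the same on both strands, matched in 0 of the 7 windows. Across all 32851 RefSeq windows of this length, 7.86% held the first and 8.52% the second. The Maf core TGCTGA matched in 3 of the 7 windows, those of Mip, Lim2 and Gja1, at first bases -132, -139 and -157 relative to the start, and in 19.5% of all windows. The windows of Aqp1, Aqp5 and Gja3 held none of the 3 motifs. The absence of these letters from 300 bases says nothing about binding elsewhere.

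The deposited intensities were linear and differed in scale, with medians of 18.4 and 6.56 on knockout arrays 1 and 2 and of 21.3 and 10.4 on wild-type arrays 1 and 2. They were brought to 1 distribution by quantile normalization before any comparison. Levels below are normalized intensities. A log2 change is the knockout mean less the wild-type mean of log2(intensity + 16), a scale that understates changes of dim genes. A probe set was tested where its mean log2 value reached the median over all non-control probe sets, an intensity of about 13.0, and limma's p-values were adjusted by Benjamini-Hochberg over all 22519 probe sets tested (11595 for genes), with a threshold of 0.05. The samples carried lens RNA by the fibre marker Cryaa, alpha A crystallin, at 8768 and 9184 in knockout and 8512 on both wild-type arrays. The 1 probe set of Hsf4 measured 1212 and 413 on the arrays labelled knockout 1 and 2, against 505 and 138 on those labelled wild type 1 and 2 (adjusted p = 1). No source used here places it relative to the deleted part, which leaves the labels unchecked by this gene, and each direction below refers to the arrays as labelled. The 18S ribosomal RNA control of the 3′ region measured 10.6 and 3228 on knockout arrays 1 and 2. On wild-type arrays 1 and 2 it measured 12.8 and 349. The control of the middle region measured 16.7 and 3636 in knockout 1 and 2, and 14.3 and 432 in wild type 1 and 2. That of the 5′ region measured 14.3 and 7309 in knockout, and 1.52 and 6898 in wild type. The arrays numbered 2 thus stood apart in both groups. Knockout array 2 did so most by the 3′ and middle controls, while the 5′ control was nearly level. Although all samples are labelled male, the brightest Xist probe set, for the RNA that coats the inactive X, measured 260 and 9.01 on knockout arrays 1 and 2, against 605 and 58.0 on wild-type arrays 1 and 2. The Y-linked gene Eif2s3y measured 101 and 161 on knockout arrays 1 and 2, against 60.4 and 208 on wild-type arrays 1 and 2, so by Xist the arrays numbered 1 go against the label, and changes are therefore also given within each number.

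No connexin, aquaporin or Lim2 probe set differed between knockout and wild-type lenses past the threshold. All 13 passed the filter on low values and were tested, and 0 of 13 passed in limma, where 0.0178% of all probe sets did, each of the 13 with an adjusted p of 1. An unadjusted p under 0.05 was found for 0 of the 13 and for 524 of all 22519. The log2 changes ran from -0.20 for a Gja1 probe set to 0.34 for a Gja3 probe set, with a median of 0.07, against a median of -0.01 over all probe sets tested. All 13 stayed within 0.5 log2 units of no change, as did 88.1% of all probe sets tested. The median of the 13 was -0.04 within number 1 and 0.13 within number 2, where each knockout array is set against the wild-type array of the same number. Within both numbers 3 of 13 were lower in knockout, where 27.4% of all probe sets tested were, and 4 were higher, where 25.9% were.

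**Figure D1:**
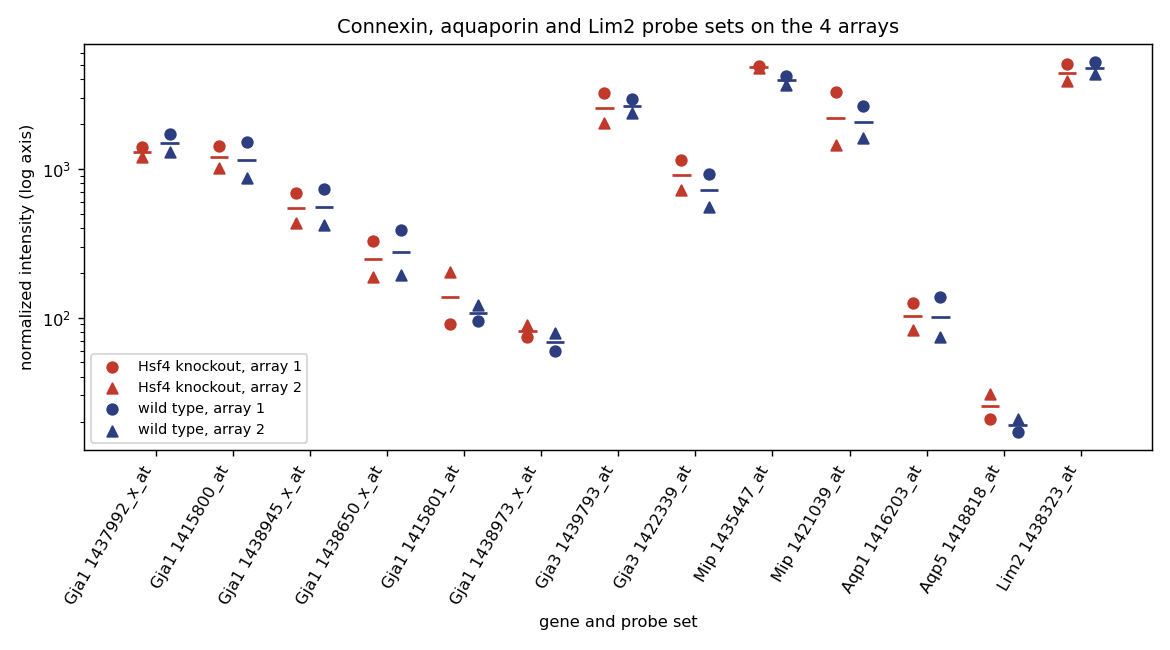
Normalized intensity (log axis) of the 13 probe sets on each array, with knockout arrays in red left of wild-type arrays in blue, circles for arrays numbered 1, triangles for arrays numbered 2 and bars at each group's mean of the log2 values. Probe sets of a gene run in order of brightness, brightest first. The groups overlap for every probe set except the brighter one of Mip, which lies at 4896 and 4746 in knockout and 4228 and 3670 in wild type.

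Mip was the gene of the 6 whose arrays separated by genotype, by 1 of its 2 probe sets. The brighter probe set measured 4896 and 4746 in knockout 1 and 2, against 4228 and 3670 in wild type 1 and 2. Both knockout arrays were above both wild-type arrays. The log2 change was 0.29 (SE 0.18, 95% interval from -0.11 to 0.69, adjusted p = 1), made of 0.21 on the arrays numbered 1 and 0.37 on those numbered 2. It was the only 1 of the 13 probe sets whose groups did not overlap, whereas groups did not overlap for 27.0% of all probe sets tested, 12.6% higher and 14.4% lower in knockout. The dimmer probe set measured 3296 and 1440 in knockout 1 and 2, against 2645 and 1599 in wild type 1 and 2. Here both arrays numbered 1 were above both arrays numbered 2, and the groups overlapped. Its log2 change was 0.08 (SE 0.38, 95% interval from -0.77 to 0.93), made of 0.32 within number 1 and -0.15 within number 2, so the probe sets of Mip disagreed in direction on the arrays numbered 2.

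Lim2, the other fibre membrane protein, showed no separation by genotype. It measured 5030 and 3868 in knockout 1 and 2, against 5185 and 4365 in wild type 1 and 2. The groups overlapped, and the array numbered 1 was the higher one in each group. The log2 change was -0.11 (SE 0.20, 95% interval from -0.55 to 0.34, adjusted p = 1), made of -0.04 on the arrays numbered 1 and -0.17 on those numbered 2. By brightness on the arrays as deposited, the Lim2 probe set ranked 106 and 180 on the knockout arrays and 96 and 143 on the wild-type arrays of 45037, and the brighter Mip probe set 113 and 120 on the knockout arrays and 154 and 194 on the wild-type arrays. These ranks describe the signal of the probe sets and do not order the RNA amounts of the genes, since brightness also depends on the probes. Quantile normalization sets a value by its rank, so the levels of these probe sets follow from their place among the brightest.

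Gja3, the fibre connexin, gave opposite signs from its 2 probe sets. The brighter one measured 3238 and 2016 in knockout 1 and 2, against 2928 and 2388 in wild type 1 and 2. The knockout arrays lay on either side of the wild-type arrays. The log2 change was -0.05 (SE 0.26, 95% interval from -0.63 to 0.53), with 0.14 within number 1 and -0.24 within number 2. The dimmer one measured 1144 and 725 in knockout 1 and 2, against 924 and 555 in wild type 1 and 2. It was higher in the knockout within both numbers, by 0.30 and 0.38, yet the groups overlapped because knockout array 2 was below wild-type array 1. Its log2 change of 0.34 was the highest of the 13 probe sets (SE 0.33, 95% interval from -0.40 to 1.08, adjusted p = 1).

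Gja1, the epithelial connexin, was measured by 6 probe sets, of which 4 carry the suffix that marks probes able to match other transcripts. The brightest measured 1396 and 1200 in knockout 1 and 2, against 1710 and 1288 in wild type 1 and 2. The groups overlapped, and the knockout array was the lower one within each number. The log2 change was -0.20 (SE 0.24, 95% interval from -0.75 to 0.36, adjusted p = 1), made of -0.29 on the arrays numbered 1 and -0.10 on those numbered 2. The second measured 1423 and 1016 in knockout 1 and 2, against 1517 and 868 in wild type 1 and 2, a log2 change of 0.07 (SE 0.31). The arrays numbered 1 were again the higher ones in both groups.

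The other 4 probe sets of Gja1 were dimmer and covered log2 changes from -0.14 to 0.31. The third and the fourth in brightness had -0.02 and -0.14. The fifth measured 91.0 and 202 in knockout 1 and 2, against 94.7 and 121 in wild type 1 and 2, with -0.05 within number 1 and 0.67 within number 2, so its log2 change of 0.31 (SE 0.39) came from the arrays numbered 2. The dimmest had 0.19, with 73.5 and 89.4 in knockout and 59.8 and 79.0 in wild type. These 6 probe sets share 1 target gene and are not independent, and 3 of them lay below 0 and 3 above it.

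Aqp1, the water channel of the epithelium, is also made by endothelial and red blood cells. Its probe set measured 126 and 82.3 in knockout 1 and 2, against 138 and 73.9 in wild type 1 and 2. The 2 arrays numbered 1 were the high ones, whichever the genotype. The log2 change was 0.00 (SE 0.37, 95% interval from -0.82 to 0.83, adjusted p = 1), made of -0.12 on the arrays numbered 1 and 0.13 on those numbered 2.

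Markers of the other cells that make Aqp1 were set beside it as the sum of their normalized intensities. The 8 endothelial markers, all above the filter, summed to 490 and 684 in knockout 1 and 2, against 582 and 474 in wild type 1 and 2, where 0 of 8 passed the threshold in limma and 0 had an unadjusted p under 0.05. The erythroid list had 4 of its 6 measured genes above the filter and summed to 136 and 521 in knockout 1 and 2, against 92.9 and 159 in wild type 1 and 2, with 0 of 4 past the threshold and 0 at an unadjusted p under 0.05. The erythroid sum was higher in knockout within both numbers, while Aqp1 was lower within number 1 and higher within number 2. The part of these cells in the Aqp1 values was not tested. In RNA of whole lenses, fewer cells of a type and less RNA per cell cannot be told apart.

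Aqp5, the water channel shared with cornea and glands, had a dim probe set. It measured 20.7 and 30.7 in knockout 1 and 2, against 17.0 and 20.9 in wild type 1 and 2, not far above the filter at 13.0. Knockout array 1 lay just below wild-type array 2, so the groups overlapped. The log2 change was 0.25 (SE 0.32, 95% interval from -0.48 to 0.97, adjusted p = 1), made of 0.15 on the arrays numbered 1 and 0.34 on those numbered 2. Of the 8 markers of corneal and surface epithelium, 2 passed the filter, Krt5 and Krt15, and Krt12, the keratin that defines the corneal epithelium, lay at 9.23 and 0.96 in knockout and 6.01 and 15.6 in wild type. The 8 summed to 69.3 and 58.4 in knockout 1 and 2, against 147 and 84.6 in wild type 1 and 2, and limma put neither Krt5 nor Krt15 past the threshold. Krt5 had a log2 change of 0.06 (SE 0.54, adjusted p = 1), made of -0.85 on the arrays numbered 1 and 0.97 on those numbered 2. Krt15 had -0.94 (SE 0.40, unadjusted p = 0.0429 and adjusted p = 1 in limma), with -1.63 within number 1 and -0.25 within number 2. The part of corneal or surface epithelium in the Aqp5 values was not tested.

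**Figure D2:**
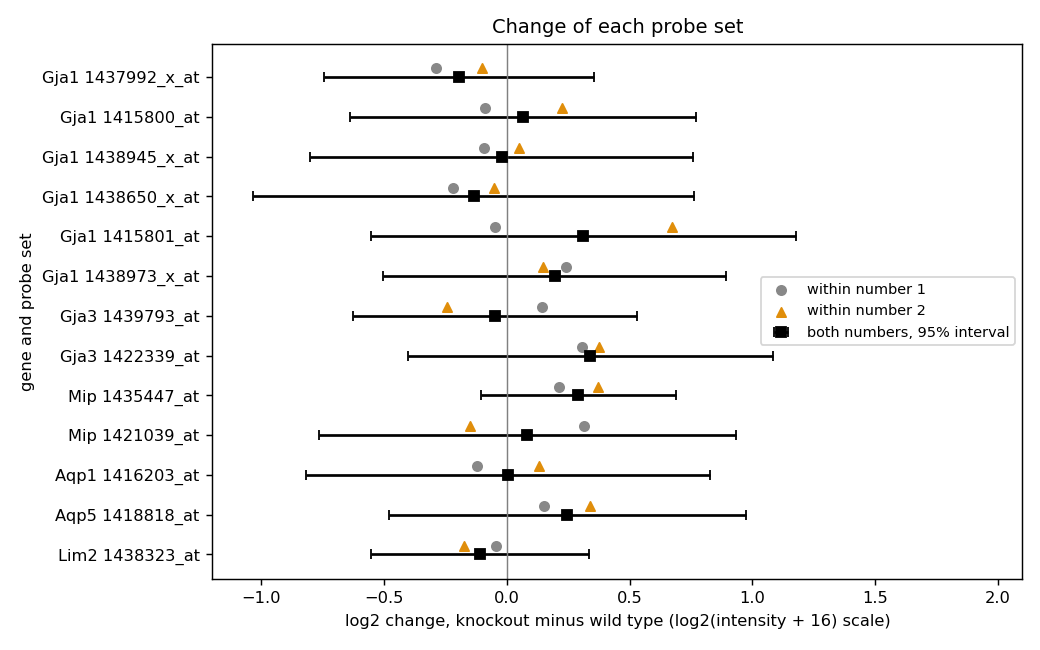
Log2 change, knockout minus wild type, of each of the 13 probe sets (squares, with limma's 95% interval), and the same difference within number 1 (circles) and within number 2 (triangles). Every interval includes 0, and the widest within-number gap is that of the dim Gja1 probe set, at -0.05 and 0.67.

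With quantile normalization, most of these probe sets differed more between array numbers than between genotypes. They are not independent, since 6 of the 13 measure Gja1. In 10 of 13 the array numbered 1 was above the array numbered 2 in both groups, against 31.8% of all probe sets tested, and in the other 3, Aqp5 and the 2 dimmest probe sets of Gja1, number 2 was above number 1 in both groups. The difference by number, averaged over the groups, was larger than the difference by group in 12 of 13 probe sets, against 61.3% of all probe sets tested. The exception was the brighter Mip probe set. The dimmer Mip probe set had the widest such difference, 1.19 log2 units in knockout and 0.72 in wild type, followed by the fourth Gja1 probe set with 0.77 in knockout and 0.94 in wild type. Aqp1 had 0.53 in knockout and 0.78 in wild type, and the brighter Gja3 probe set 0.68 in knockout and 0.29 in wild type. These counts depend on how arrays were scaled: number 1 was above number 2 in both groups for 8 of 13 probe sets with trimmed-mean scaling (32.9% of all), 12 with median centring (72.3% of all) and 13 with values as deposited (95.4% of all). The 18S controls given above were higher on the arrays numbered 2, and Xist was higher on those numbered 1. The 7 lens epithelium markers summed to 5493 and 4207 in knockout 1 and 2 and 5917 and 3952 in wild type 1 and 2. Col4a1, a capsule collagen, made up most of each sum, at 3868 and 2288 in knockout 1 and 2 and 4093 and 2139 in wild type 1 and 2. Pax6 was higher on the arrays numbered 2, at 787 and 1438 in knockout 1 and 2 and 975 and 1241 in wild type 1 and 2. The 8 fibre markers summed to 38968 and 43665 in knockout 1 and 2 and 41385 and 41147 in wild type 1 and 2, and crystallins made up most of each sum. In limma 0 of the 8 passed the threshold. An unadjusted p under 0.05 was found for 2 of them, Bfsp1 and Dnase2b, both lower in knockout, and for 272 of all 11595 genes. Dnase2b measured 143 and 262 in knockout 1 and 2, against 402 and 579 in wild type 1 and 2. The part of RNA quality or of the cell makeup in the number difference was not tested.

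**Figure D3:**
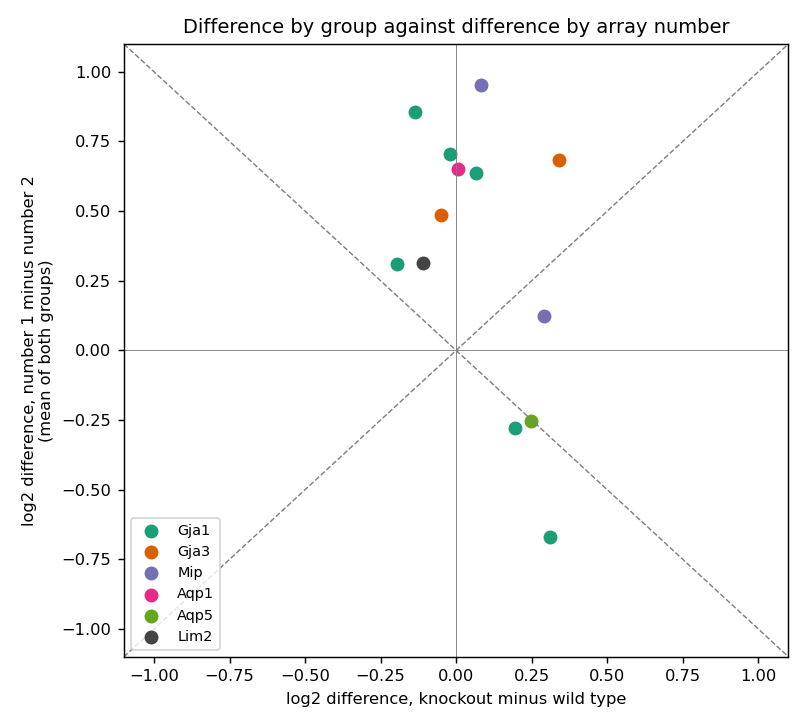
Each point is 1 probe set, with its log2 difference between knockout and wild type on the horizontal axis and its log2 difference between number 1 and number 2, averaged over both groups, on the vertical axis. Outside the left and right wedges of the dashed diagonals the number difference is the larger, which holds for 12 of the 13 probe sets, Aqp5 lying close to the line.

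A ratio of 2 genes on the same array does not depend on a factor that multiplies all values of that array. The change of such ratios was therefore read from the deposited values of the brightest probe sets. The arrays did not differ by 1 such factor alone. Knockout arrays 1 and 2 had medians of 18.4 and 6.56 but highest values of 13059 and 8265. Ratios of genes of unlike brightness can thus still carry a difference in scale. Only the change of a ratio is meaningful, not its level. Of the 15 pairs among the 6 genes, 4 had groups that did not overlap, a share close to the 27.3% of all pairs of tested genes. The log2 ratio of Mip to Lim2 was -0.02 and 0.49 in knockout 1 and 2, against -0.27 and -0.28 in wild type 1 and 2, a difference of 0.50, with 0.24 within number 1 and 0.76 within number 2. The log2 ratio of Gja1 to Mip was -1.69 and -2.59 in knockout 1 and 2, against -1.23 and -1.54 in wild type 1 and 2, a difference of -0.76. The ratio of Gja1 to Aqp5 differed by -0.65 and that of Aqp5 to Lim2 by 0.39. Among the pairs that overlapped, the ratio of Aqp1 to Lim2 differed by -0.08, with -0.08 within number 1 and -0.07 within number 2. The ratio of Gja3 to Lim2 differed by -0.07, but by 0.18 within number 1 and -0.32 within number 2. The ratios were not tested, and they rest on 1 of the 2 Mip probe sets. With values as deposited, the dimmer Mip probe set and Lim2 both had a log2 change of -0.55, against -0.04 for the brighter one. The difference in the Mip to Lim2 ratio was thus not seen with the dimmer Mip probe set.

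The sign of 10 of the 13 changes depended on the scaling. The median log2 change of all probe sets tested was -0.01 with quantile normalization, -0.42 with values as deposited, -0.25 with median centring and 0.01 with trimmed-mean scaling. With values as deposited all 13 changes were below 0. Set against the median of all probe sets under each scaling, 5 probe sets were above it under all 5 scalings: the brighter one of Mip, by 0.30 to 0.57, the dimmer one of Gja3, by 0.13 to 0.35, Aqp5, by 0.23 to 0.36, and the 2 dimmest of Gja1. A further 4 were below it under all 5, among them the brightest of Gja1, by -0.37 to -0.18, and the brighter one of Gja3, by -0.19 to -0.00. Lim2, Aqp1, the dimmer probe set of Mip and the second of Gja1 changed side.

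**Figure D4:**
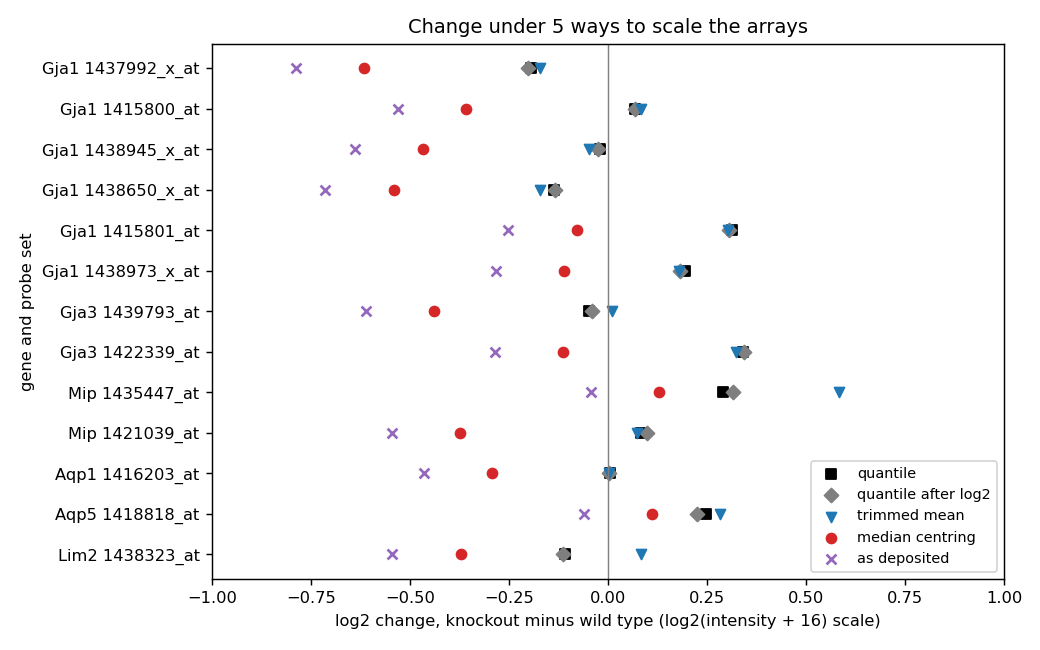
Log2 change, knockout minus wild type, of the 13 probe sets under quantile normalization (squares), quantile normalization after the log (diamonds), trimmed-mean scaling (downward triangles), median centring (circles) and values as deposited (crosses). Values as deposited put every probe set below 0, from -0.79 for the brightest Gja1 probe set to -0.04 for the brighter Mip probe set, whose change was 0.58 with trimmed-mean scaling.

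Among the other connexins analysed, 12 genes had a probe set with a single symbol, 4 of these passed the filter, and 0 of the 4 passed the threshold, where 0.0345% of all genes tested did, nor did any have an unadjusted p under 0.05 in limma. Gje1, a connexin-like gene whose loss in mice disturbs lens development, measured 3085 and 1334 in knockout 1 and 2, against 1607 and 2024 in wild type 1 and 2. Knockout array 1 was the highest and knockout array 2 the lowest, so the log2 change of 0.17 (SE 0.35, adjusted p = 1) was made of 0.93 within number 1 and -0.60 within number 2. Gjc1, connexin 45 of heart and vessels, had -0.12 by its brightest probe set. Its second tested probe set had -0.31, lower in knockout within both numbers, with groups that did not overlap. Gja4, connexin 37 of endothelium, had -0.07. Gjd2, connexin 36 of neurons including those of the retina, measured 20.1 and 1.47 in knockout 1 and 2, against 16.0 and 48.7 in wild type 1 and 2, a log2 change of -0.86 (SE 0.47, adjusted p = 1) made of 0.17 within number 1 and -1.89 within number 2. The 8 neural retina markers had a median of -0.13 within number 1 and -1.06 within number 2, with a sum of 1567 and 1120 in knockout and 1671 and 2095 in wild type. The part of retinal RNA in the Gjd2 value was not tested. The 8 remaining measured connexins, among them Gjb1, Gjb2 and Gjb6, lay below the filter.

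Of the 9 other aquaporins, all were measured and 2 passed the filter, with 0 past the threshold and 0 at an unadjusted p under 0.05. Aqp4, the water channel of glia, measured 32.1 and 42.4 in knockout 1 and 2, against 40.8 and 66.5 in wild type 1 and 2 (log2 -0.37, SE 0.33, adjusted p = 1), lower in knockout within both numbers. Its second tested probe set had -0.44, with groups that did not overlap. Aqp11, an intracellular aquaporin, measured 19.0 and 12.9 in knockout and 12.4 and 11.6 in wild type, a log2 change of 0.18 (SE 0.34), with groups that did not overlap. Aqp2, Aqp3, Aqp6, Aqp7, Aqp8, Aqp9 and Aqp12 lay below the filter. Of the 3 pannexins, which form channels to the outside of the cell, Panx1 was tested and had -0.24 (SE 0.32).

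The family of Lim2 held 6 tested genes, of which 0 passed the threshold and 0 had an unadjusted p under 0.05, with a median log2 change of 0.05 against -0.01 over all genes tested. Pmp22, the peripheral myelin protein, measured 1122 and 1636 in knockout 1 and 2, against 1324 and 1244 in wild type 1 and 2, a log2 change of 0.08. Emp2, an epithelial membrane protein, measured 16.4 and 28.3 in knockout, against 44.3 and 40.8 in wild type, both knockout arrays lower (log2 -0.63, SE 0.33, adjusted p = 1). Emp3 measured 36.5 and 64.9 in knockout, against 30.2 and 33.3 in wild type, both knockout arrays higher (log2 0.45, SE 0.33, adjusted p = 1). Groups did not overlap for 4 of the 6 genes, 2 higher and 2 lower, where they did not overlap for 27.0% of all genes tested, 12.7% higher and 14.3% lower in knockout.

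Scaffolds and partners of fibre junctions had 11 tested genes of 16, with 0 past the threshold, 1 with an unadjusted p under 0.05, and a median of -0.14. Bfsp1, filensin of the beaded filament, which binds aquaporin 0, had the lowest p of the list, at 2186 and 2060 in knockout 1 and 2, against 5220 and 3785 in wild type 1 and 2 (log2 -1.06, SE 0.21, adjusted p = 0.434). Both knockout arrays lay below both wild-type arrays, while the brighter Mip probe set lay above them. Msn, moesin, which links membrane proteins to actin, had the next lowest p, with a log2 change of -0.46 (SE 0.32, adjusted p = 1). Tjp1, the ZO-1 scaffold that binds connexins, had 0.01, and Ezr, ezrin, had 0.22. Pumps and transporters that drive the lens circulation had 9 tested genes of 16, with 0 past the threshold, 0 with an unadjusted p under 0.05, and a median of -0.23, from -0.39 for the bicarbonate transporter Slc4a4 to 0.14 for the chloride cotransporter Slc12a2. Within both numbers, 3 of the 9 were lower in knockout and 0 higher, where 27.5% of all genes tested were lower and 26.1% higher. The 2 of lowest p were Slc4a4 (SE 0.36) and the chloride transporter Clcn3 (log2 -0.32, SE 0.38).

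**Figure D5:**
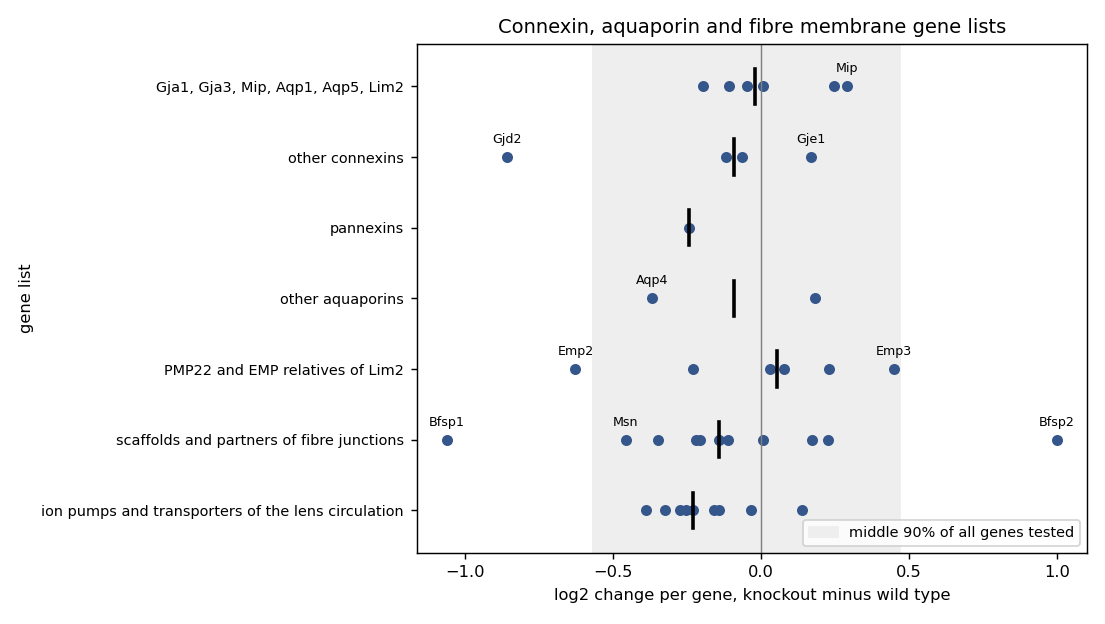
Log2 change per gene, knockout minus wild type, for the tested genes of 7 lists (points), with each list's median (bar) and the range that holds the middle of all genes tested from -0.57 to 0.47 (grey). The 6 genes described here lie between -0.20 and 0.29, inside that range, and Gjd2, Emp2, Bfsp1 and Bfsp2 lie outside it, Bfsp2 with 60.1 and 2907 on its knockout arrays and 180 and 268 on its wild-type arrays.

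Markers of tissue around the lens were read on the same arrays. The 10 striated muscle markers summed to 135 and 140 in knockout 1 and 2, against 2733 and 1407 in wild type 1 and 2, and 3 of 10 passed the threshold in limma, all lower, where 0.0345% of all genes tested passed. These 3 were all of the genes called lower, and no gene passed with values as deposited, with no filter or with the mean of a gene's probe sets. The 9 measured fibroblast and pericyte markers, cells that also carry connexin 43, summed to 1535 and 1228 in knockout, against 2099 and 2554 in wild type, with a median change of -1.33 on the log2 scale, and 0 of 9 passed the threshold, 6 of them with an unadjusted p under 0.05, which 272 of all 11595 genes had. The 8 macrophage markers summed to 624 and 693 in knockout and 627 and 644 in wild type, and the 8 pigment cell and ciliary markers to 949 and 1123 in knockout and 676 and 1058 in wild type, with 0 past the threshold in both lists and 0 at an unadjusted p under 0.05. The brightest Gja1 probe set was lower within both numbers, with -0.29 and -0.10, and the part of RNA from surrounding tissue in the values of Gja1 was not tested.

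Genes with a pattern like one of the 6 over the 4 arrays were to be named where the gene's brightest probe set spanned at least 1 log2 unit. None did, with spans from 0.41 for Mip to 0.78 for Aqp1. At such spans likeness is common: 607 of 11594 genes lay within a root mean square difference of 0.1 log2 units of the centred values of Lim2, and 162 of those of Aqp1.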

How the data were processed

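RNA of newborn lenses was measured on 4 Affymetrix arrays, 2 per group. The authors deposited linear intensities, a single value for a probe set on each array. The sources used here give neither the summarising software nor the background correction, and the arrays had not been brought to 1 scale. Probe sets were named by the platform annotation: of 45037 non-control probe sets 34945 had 1 symbol, 932 several and 9160 none. These intensities were set to a shared distribution by limma 3.58.1 (R 4.3.3), 16 was added and log2 taken, and the 64 control probe sets were then left out. Probe sets (22519) and genes (11595, each by its brightest probe set) with a mean log2 value of at least 4.86 were fitted with limma's linear model and a variance trend on intensity, over all 4 arrays and with no block. The number of arrays limits the precision. Named were all 13 probe sets, tested connexins and aquaporins, members of other lists past the threshold or otherwise the 2 of lowest p, and at most 2 genes of each marker list. Cryaa, Col4a1, Pax6, Krt12, Hsf4, Pmp22, Tjp1, Ezr, Bfsp2, Slc12a2, Xist and Eif2s3y were picked for mention with their values in view. So were the connexins and aquaporins below the filter and the Gja3 to Lim2 and Aqp1 to Lim2 ratios. The 6 genes and all lists were chosen with earlier results of these data known. The fit was tested on simulated data, where it recovered 13.7% of 2-fold changes, 94.3% of 4-fold changes and 100% of 8-fold changes. Most 2-fold changes were thus missed in that simulation. Other scalings, filters, offsets, variance models, ways to combine probe sets, a block on the array number and leaving out each array were tried. Promoter windows were read from RefSeq's table, and none of the lists was given a set test.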

Additional observations from a re-analysis of the deposited data

How the results depend on the processing

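The count of 0 connexin, aquaporin and Lim2 probe sets past the threshold was the same under every alternative run, leaving out each array included. Of 194 values of the 13 probe sets under these alternatives, 34 changed sign and 0 came past the threshold, and the lowest adjusted p in limma was 0.367, for the fifth Gja1 probe set without knockout array 1. At the stricter filter Aqp5 was not tested. With values as deposited the reversed log2 changes were -0.53, -0.25 and -0.28 for Gja1, -0.29 for Gja3, -0.045 and -0.55 for Mip, -0.47 for Aqp1 and -0.062 for Aqp5. With median centring they were -0.36, -0.080 and -0.11 for Gja1, -0.11 for Gja3, -0.37 for Mip and -0.29 for Aqp1. Trimmed-mean scaling gave 0.0096 for the brighter Gja3 probe set and 0.082 for Lim2, and an offset of 64 gave -0.0024 for Aqp1.

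Leaving out each array in turn gave ranges that crossed 0 for 10 probe sets: for Gja1 -0.40 to 0.0071, -0.33 to 0.46, -0.41 to 0.37, -0.61 to 0.33 and -0.20 to 0.83, for Gja3 -0.39 to 0.29 and -0.019 to 0.70, for the dimmer Mip probe set -0.51 to 0.68, for Aqp1 -0.38 to 0.39 and for Lim2 -0.30 to 0.080. The other 3 kept their sign, among them the brighter Mip probe set at 0.19 to 0.39. A lone array in a group was assumed to vary like the other group.

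Over all probe sets, 4 passed the threshold, but 0 with values as deposited, 15 with median centring, 0 with no filter and 5 to 649 without 1 array, the highest without knockout array 1. Over all genes, 4 passed, but 0 with values as deposited, 12 with median centring, 7 with trimmed-mean scaling, 0 with no filter, 0 with the mean of a gene's probe sets, 26 with its most variable one and 4 to 280 without 1 array. The cause was not tested.

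The labels number the arrays of both groups 1 and 2 without saying what a number shares, and the differences between numbers correlated at 0.43 between knockout and wild type across 22519 probe sets. With the number as a replicate block, 317 probe sets and 200 genes passed, and 0 of the 13, whose lowest adjusted p was then 0.433 for the brighter Mip probe set.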
